A study of Homo sapiens with 19 samples.

Results

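This report describes 45 interferon-stimulated genes in THP-1 cells, a human monocytic leukaemia line that takes on a macrophage-like state when treated with phorbol myristate acetate (PMA). The genes were chosen by name, as a list of genes that are widely used as readouts of interferon responses. Of the 45 names, 44 were found among the 31033 gene names of the array, by exact match of the symbol printed in the array files. The remaining gene, IRF9, is on the array under its older symbol ISGF3G. It was left out of every count made from the arrays and kept in those of promoters. All cells had been differentiated with 30 nM PMA for 16 to 18 h and rested for 2 to 3 h. Cells of the treated groups then received 0.1 mM vitamin C (vit C), and untreated (UT) cells received none. RNA was taken after 8, 24, 48 and 96 h and measured on 19 Agilent one-colour arrays, with 2, 3, 2 and 3 arrays of UT cells and 3, 2, 2 and 2 arrays of vit C-treated cells at these times. A replicate is a separate culture flask of the same line, so the spread between arrays is that of flasks of 1 line. As labelled, the groups differ in vit C and time alone.

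Type I interferons are secreted proteins that bind the receptor chains IFNAR1 and IFNAR2 on the cell surface. The receptor activates transcription factors, STAT2 among them, which join IRF9 and bind a DNA element called the interferon-stimulated response element (ISRE). Interferon gamma acts through IFNGR1 and IFNGR2 and leads to binding at a different element, the gamma-activated site (GAS). The genes switched on in this way encode proteins that recognise foreign nucleic acid, block the entry or copying of viruses, present antigen or feed back on the pathway. Macrophages are a main source of interferons as well as responders to them, and many carry a low level of interferon-stimulated transcripts at rest.

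The unit throughout is the log2 of the processed fluorescence signal minus the 75th percentile of the same array, so 0 is the signal that 3 in 4 spots of an array do not exceed. A difference of 1 on this scale is 1 doubling. Each gene was read from its brightest probe, and levels of different genes are not compared with each other because probes differ in brightness. The brightest probes of all 44 members were well above background on all 19 arrays. Over all probes, 57.5% to 68.7% of probes per array passed that mark, and up to 72.8% on the vit C arrays at 96 h. A difference was counted as past the thresholds at a limma adjusted p (q, Benjamini-Hochberg over all 31033 gene names) of at most 0.05 and a log2 fold change of at least 1 in size. In RNA from whole cultures, fewer cells that express a gene and less RNA per cell cannot be told apart.

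Of 11 macrophage markers, 10 were well above background on all arrays, and CD14 and the scavenger receptor MARCO rose from 8 to 96 h in UT cells by 4.22 and 4.65. CD68, LYZ and SPI1 fell, with differences of -1.51, -1.46 and -1.06, and the median of the 11 was -0.07. The SPI1 call was lost without UT 96 h replicate 3 (-0.71). The summed log2 level of 8 T and NK cell markers lay between -1.31 and -0.51 on the arrays at 8 and 24 h and between 1.26 and 2.17 at 48 and 96 h. Among these markers GNLY had means in UT cells of -4.07, -4.20, 1.93 and 1.27 at the 4 times and CD3D was well above background on no array. Between 8 and 48 h in UT cells, 2 of 5 detected T and NK cell markers had higher and 3 lower means, with a median of -0.51, and GNLY alone passed the thresholds. Among 5 fibroblast markers, the proteoglycan DCN had means of -5.58, -4.76, -1.29 and -0.29 in UT cells and -5.27, -4.12, 1.05 and 2.19 in vit C-treated cells. The summed level of 5 B cell markers lay between 0.55 and 1.11 in UT and 1.83 and 1.99 in vit C-treated cells at 8 h, and between 0.91 and 1.36 and 1.89 and 2.33 at 48 h, without overlap. At 24 h it overlapped, and no B cell marker passed the thresholds between the treatments. That of 4 epithelial markers ran from 0.67 to 1.96 over all arrays. The part of these shifts in the results was not tested.

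The arrays lay on 4 slides. Slide 1 held 8 UT arrays, slide 2 held UT 96 h replicates 2 and 3 with 6 vit C arrays from 8 to 48 h, slide 3 held vit C 48 h replicate 2 alone and slide 4, scanned on another day, held both vit C arrays of 96 h. The vit C effect at 96 h and the slide therefore cannot be told apart. UT 96 h replicate 3 stood apart from its group: it correlated best over all probes with vit C 96 h replicate 2 (r = 0.973), whereas every other array correlated best with an array of its own group. Counts of members at 96 h are therefore also given without it, with the members' calls that changed. For other genes, and for values short of a call, only some of the changes are given.

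The promoters of the listed genes were read from RefSeq (GRCh38.p14), in windows from 250 bases before to 50 bases after each transcription start. Windows were found for 37 of the 45 genes, with DDX58 under its present symbol RIGI. The ISRE core was searched as GAAA, any 2 bases and GAAA again or, on the other strand, TTTC, any 2 bases and TTTC, and the GAS core as TTCNNNGAA, which reads the same on both strands. An ISRE core lay in 29 of the 49 member windows, in 25 of the 37 genes, against 3.57% of all 35116 windows. A GAS core lay in 13 of the 49 windows, in 12 genes, against 7.66% of all windows. Both cores overlapped in 6 of the member windows, in 5 genes. Members without an ISRE core in these windows included OAS1, IRF1, PSMB9 and XAF1. The stretches below belong to members whose level changed with time, and capitals mark each ISRE core, with 20 bases on each side of the first or of the overlapping copies.
IFIT3, chr10:89332458-89332507 (plus strand): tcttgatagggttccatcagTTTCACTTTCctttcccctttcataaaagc
IFI44L, chr1:78620355-78620404 (plus strand): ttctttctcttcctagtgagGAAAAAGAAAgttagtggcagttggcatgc
ISG15, chr1:1013364-1013419 (plus strand): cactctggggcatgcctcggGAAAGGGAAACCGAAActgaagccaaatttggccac
ISG20, chr15:88638927-88638976 (plus strand): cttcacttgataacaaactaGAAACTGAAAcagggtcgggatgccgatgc
MX1, chr21:41431834-41431883 (plus strand): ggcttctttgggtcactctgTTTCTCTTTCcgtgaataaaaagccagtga
IFITM1, chr11:313980-314029 (plus strand): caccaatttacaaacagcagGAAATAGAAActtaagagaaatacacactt
IFI27, chr14:94110608-94110657 (plus strand): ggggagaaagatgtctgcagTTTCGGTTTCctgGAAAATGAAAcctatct
HERC5, chr4:88456974-88457029 (plus strand): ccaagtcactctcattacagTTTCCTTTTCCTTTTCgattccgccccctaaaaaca
GBP1, chr1:89065306-89065355 (minus strand): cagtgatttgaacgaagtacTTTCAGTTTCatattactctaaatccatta
The ISG15 and HERC5 stretches each held 2 overlapping cores, ending 97 and 109 bases before the start. The same 50 letters of IFI44L occurred a second time further upstream, at chr1:78620264-78620313. The core shown ended 41 bases before the start in IFIT3, 30 in IFITM1, 59 in ISG20 and 117 in GBP1. IFIT3 held further cores, ending 84 bases before the same start and 146 and 112 bases before another. HERC5 held a further core ending 64 bases before its start. The IFI27 stretch held 2 separate cores, ending 98 and 85 bases before the nearer of its starts. Of the 3 MX1 windows 2 held a core, and the one shown lay 186 bases before its start. A match describes the letters of the window and no binding was measured.

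In UT cells the interferon-stimulated genes were at their highest 24 h after the rest period and lower at 48 and 96 h. The median over the 44 members was 1.57 ± 0.053 at 8 h (mean of the arrays ± SD, n = 2), 2.05 ± 0.089 at 24 h (n = 3), 1.09 ± 0.072 at 48 h (n = 2) and 1.18 ± 0.21 at 96 h (n = 3). In vit C-treated cells it was 1.54 ± 0.16 (n = 3), 2.01 ± 0.074, 1.04 ± 0.14 and 1.08 ± 0.079 (n = 2 each). The 24 h arrays lay above all others and did not overlap with any other time, in UT as in vit C-treated cells. Of the 44 members, 30 had their highest group mean at 24 h in UT cells, where 27.2% of all genes did, and 24 in vit C-treated cells, where 20.8% of all genes did. For 20 members 24 h was the highest time in both.

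**Figure D1:**
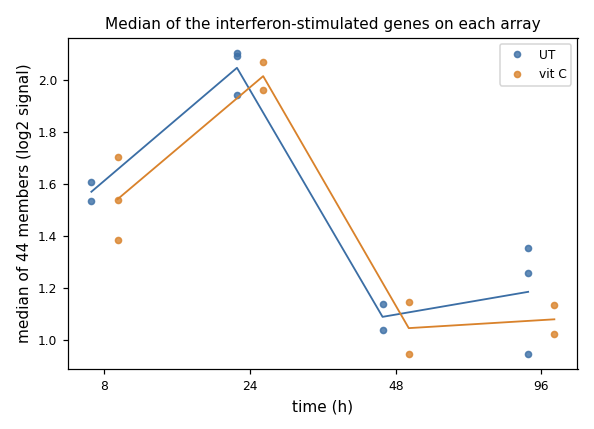
Median log2 signal of the 44 interferon-stimulated genes (y axis, relative to the array's 75th percentile) on each of the 19 arrays against time in h (x axis, evenly spaced), for UT (blue) and vit C-treated cells (orange). Points are arrays and lines join group means, which peak at 2.05 in UT and 2.01 in vit C-treated cells at 24 h.

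Between 8 and 24 h in UT cells, 40 of the 44 members had a higher mean at 24 h, with a median difference of 0.48 (all genes 0.05). Of these, 21 had an unadjusted p of at most 0.05 (8.18% of all genes), 5 had a q of at most 0.05 (1.36% of all genes) and 2 passed both thresholds (1.03% of all genes). The arrays at 8 h are also the base of the comparisons at 48 and 96 h, so the 3 comparisons share them. With another background correction, normexp, the median of all genes in this comparison was 0.26 and 29 of the 44 members lay above it, against 39 in the setting used here.

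IFI44L, an interferon-induced protein of the IFI44 family, and IFIT3, a partner of IFIT1 in binding viral RNA, were the 2 members past the thresholds. The signals of IFI44L in UT cells were -1.53 and -1.82 at 8 h, -0.47, 0.02 and 0.02 at 24 h, -1.69 and -1.43 at 48 h and -2.41, -3.01 and -2.25 at 96 h. With vit C they were -0.83, -1.05 and -1.23 at 8 h, 0.13 and -0.19 at 24 h, -1.96 and -1.85 at 48 h and -1.95 and -1.79 at 96 h. The 24 h arrays lay above the 8 h arrays in both series, and the UT arrays of 96 h lay lowest. The difference between 24 and 8 h in UT cells was 1.53 (SE 0.25, q = 0.00338).

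IFIT3 signals on the UT arrays were -0.84 and -1.45 at 8 h, -0.27, 0.50 and 0.46 at 24 h, -1.30 and -1.23 at 48 h and -1.35, -1.43 and -1.57 at 96 h. On the vit C arrays they were -0.31, -0.83 and -0.55 at 8 h, -0.02 and -0.96 at 24 h, -0.94 and -1.14 at 48 h and -2.10 and -1.81 at 96 h. The UT arrays of 24 h lay above those of all other times, whereas the vit C arrays of 24 h spanned those of 8 h. The UT difference between 24 and 8 h was 1.37 (SE 0.30, q = 0.0266). Without UT 8 h replicate 2 neither gene passed, and the IFIT3 call was also lost without UT 8 h replicate 1, without UT 24 h replicate 2 or 3 and with the replicate number as a block. The methods' t-test called 0 of all genes here, and 19 members unadjusted (14.1% of all genes).

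The other 3 members with a q of at most 0.05 had smaller differences. They were ISG15, a ubiquitin-like modifier, at 0.98 (q = 0.00451), MX1, a dynamin-like GTPase that blocks influenza virus, at 0.89 (q = 0.00843), and OAS3, which makes the 2-5A signal that activates RNase L, at 0.90 (q = 0.0362). By role, all 4 IFIT genes, all 5 of the OAS family with the RNA-dependent kinase PKR (EIF2AK2), all 4 genes of the ISG15 system and all 3 nucleic acid sensors had higher means at 24 h. Their median differences were 0.70, 0.75, 0.74 and 0.19. GBP1, an interferon-inducible GTPase, had the largest difference of any member at 1.56 (q = 0.0918) but did not pass. The 4 members with lower means were IRF7, LAP3, ISG20 and SAMD9, at -0.69, -0.36, -0.28 and -0.16.

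**Figure D2:**
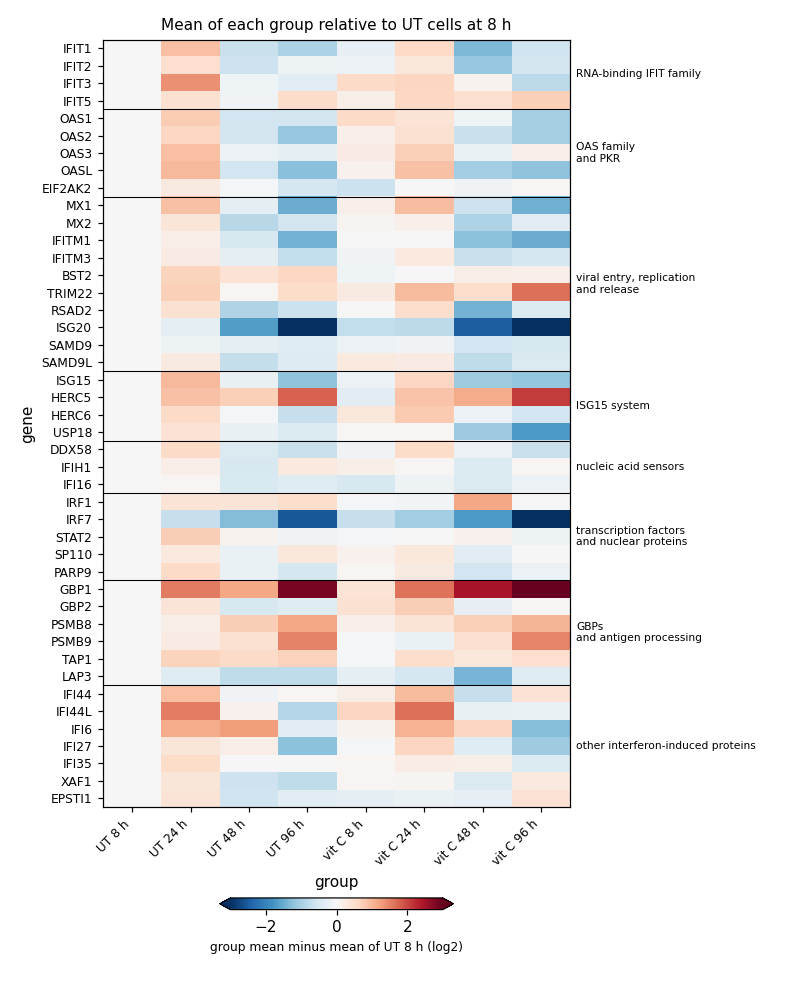
Mean log2 signal of each member (rows, grouped by role) in each of the 8 groups (columns) minus its mean in UT cells at 8 h; red is higher and blue lower, with the colour scale capped at 3 in both directions. Most rows turn red at 24 h and blue at 48 h, while ISG20 and IRF7 darken towards blue and GBP1, HERC5, PSMB8 and PSMB9 towards red.

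Between 24 and 48 h in UT cells, 41 of the 44 members had lower means, with a median of -0.67 (all genes -0.03). In total 13 members fell past the thresholds and none rose, where 1.03% of all genes fell. This comparison was chosen after the group means had been seen, and it starts from the time at which the members were highest. All UT arrays of 8, 24 and 48 h lay on slide 1. By role, 4 of the 5 genes of the OAS family and PKR fell (OAS1, OAS2, OAS3 and OASL), as did 2 of 4 IFIT genes, 4 of 10 genes acting on viral entry, replication and release, and 1 each of the ISG15 system, the sensors and the other interferon-induced proteins.

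The largest falls were those of IFIT1, which binds viral RNA lacking a host cap, at -1.57 (SE 0.25, q = 0.00149), and OASL, a catalytically inactive OAS relative that binds RIG-I, at -1.53 (SE 0.26, q = 0.00221). IFIT3 fell by 1.49, IFI44L by 1.42, OAS1 by 1.34 and RSAD2 (viperin), an antiviral radical-SAM enzyme, by 1.35. MX2 fell by 1.21, OAS3 by 1.07 and DDX58, the RNA sensor RIG-I, by 1.01. Without UT 48 h replicate 1, 6 of the 13 passed. The DDX58 call held in 5 of 14 alternatives and those of OAS1 and OAS2 in 6 of 14 each. With normexp 5 of the 13 calls were lost, those of DDX58, IFI44L, OAS2, OAS3 and RSAD2, the last standing at -0.70. The methods' t-test called 0 of all genes in this step, and 25 members unadjusted (16.8% of all genes).

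Of the members that did not pass, IFIT2 differed by -1.12 (q = 0.0516), IFI44 by -1.0 (q = 0.126), EPSTI1 by -1.0 (q = 0.166) and SAMD9L by -0.98 (q = 0.0296). HERC6, a relative of the ISG15 ligase, differed by -0.61, the sensor IFIH1 (MDA5) by -0.68 and the DNA sensor IFI16 by -0.52. The RNA-dependent kinase EIF2AK2 (PKR) differed by -0.32, SP110 by -0.50, PARP9 by -0.77, STAT2 by -0.61 and IFI35 by -0.54. None of these last 8 had a q of at most 0.05. The 3 members with higher means at 48 than at 24 h were PSMB8, PSMB9 and IFI6, at 0.55, 0.20 and 0.14.

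Against UT cells at 8 h, 3 members differed past the thresholds at 48 h. ISG20 and IRF7 were lower (2.59% of all genes) and IFI6, a mitochondrial protein that restrains cell death, was higher (4.42% of all genes). Signals of IFI6 on the UT arrays were 3.49 and 3.55 at 8 h, 4.55, 4.64 and 4.69 at 24 h, 4.82 and 4.72 at 48 h and 3.28, 3.88 and 2.43 at 96 h. On the vit C arrays they were 3.62, 3.60 and 3.68 at 8 h, 4.71 and 4.41 at 24 h, 4.16 and 4.18 at 48 h and 1.75 and 2.71 at 96 h. In both series the arrays of 24 and 48 h lay above those of 8 h, and the vit C arrays of 96 h lay below them. The difference of 1.25 (SE 0.37, q = 0.0492) lost its q of at most 0.05 when any 1 of the 4 arrays was left out, with the slide or the replicate number as a block, and when arrays were scaled by quantiles or to a percentile of detected probes alone. The median of the 44 members was -0.23 (all genes 0.04), or -0.36 without UT 8 h replicate 2.

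Between 8 and 96 h in UT cells, 8 members fell (5.37% of all genes) and 4 rose (6.95% of all genes), and the median of the 44 was -0.38 (all genes 0.02). Of the members, 32 had lower means at 96 h. By role, 3 of 10 genes acting on viral entry, replication and release (ISG20, MX1 and IFITM1), 2 of 5 of the OAS family and PKR (OASL and OAS2), ISG15, IRF7 and IFI27 fell. Of the 6 genes for guanylate-binding proteins and antigen processing, 3 rose (GBP1, PSMB8 and PSMB9), and HERC5 was the fourth to rise. Without UT 96 h replicate 3, 16 members passed (12.6% of all genes), the same 12 with IFIT1 (-1.17), LAP3 (-1.25) and IFI44L (-1.04) lower and IRF1 (1.26) higher. Of the members, the methods' t-test called ISG20 and IRF7, among 211 of all genes.

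ISG20, an exonuclease that degrades single-stranded RNA, showed the largest fall. Its signals in UT cells were 5.0 and 5.14 at 8 h, 5.0, 4.67 and 4.70 at 24 h, 3.37 and 3.44 at 48 h and 1.80, 1.94 and 1.92 at 96 h. Vit C-treated cells gave 4.33, 4.35 and 4.32 at 8 h, 4.24 and 4.32 at 24 h, 2.48 and 2.72 at 48 h and 1.78 and 1.68 at 96 h. The arrays of 8 and 24 h lay above all those of 48 h, and those of 48 h above all those of 96 h, in both series. The UT difference between 96 and 8 h was -3.19 (SE 0.16, q = 2.3e-08).

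IRF7, the transcription factor that drives interferon alpha genes, had UT signals of 5.38 and 5.39 at 8 h, 4.74, 4.60 and 4.75 at 24 h, 4.22 and 3.94 at 48 h and 2.79, 2.95 and 2.80 at 96 h. The vit C signals were 4.89, 4.79 and 4.39 at 8 h, 4.59 and 4.09 at 24 h, 3.67 and 3.64 at 48 h and 2.03 and 2.30 at 96 h. In UT cells the arrays of each time lay below all those of the time before, with no overlap. The UT difference between 96 and 8 h was -2.54 (SE 0.20, q = 7.18e-07). A second, dimmer IRF7 probe gave -2.89.

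MX1 was high at 24 h and low at 96 h. UT signals were 2.20 and 1.88 at 8 h, 2.94, 2.87 and 2.98 at 24 h, 1.76 and 1.78 at 48 h and 0.69, 0.44 and 0.51 at 96 h. Vit C signals were 2.32, 2.12 and 2.15 at 8 h, 2.91 and 3.03 at 24 h, 1.41 and 1.43 at 48 h and 0.63 and 0.55 at 96 h. The 96 h arrays of both series lay below all arrays of the other times, and the UT difference between 96 and 8 h was -1.49 (SE 0.16, q = 1.44e-05).

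IFITM1, a membrane protein that hinders the fusion of viruses with the cell, had UT signals of 1.24 and 0.90 at 8 h, 1.0, 1.30 and 1.5 at 24 h, 0.59 and 0.61 at 48 h and -0.57, -0.55 and 0.07 at 96 h. The vit C arrays gave 1.28, 0.85 and 1.05 at 8 h, 1.02 and 1.09 at 24 h, -0.35 and 0.04 at 48 h and -0.27 and -0.56 at 96 h. The arrays of 8 and 24 h overlapped, and all arrays of 48 and 96 h lay below them. The UT difference between 96 and 8 h was -1.42 (SE 0.24, q = 0.000742).

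ISG15 signals in UT cells were 4.92 and 4.83 at 8 h, 5.84, 5.83 and 5.91 at 24 h, 4.55 and 4.74 at 48 h and 3.59, 3.58 and 3.85 at 96 h. On vit C arrays they read 4.81, 4.56 and 4.71 at 8 h, 5.42 and 5.57 at 24 h, 3.83 and 3.80 at 48 h and 3.80 and 3.63 at 96 h. The 24 h arrays were the highest in both series. UT arrays fell further from 48 to 96 h, whereas the vit C arrays of these 2 times overlapped. The UT difference between 96 and 8 h was -1.2 (SE 0.17, q = 0.000112).

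OASL signals in UT cells were -0.16 and -0.43 at 8 h, 0.56, 0.51 and 0.96 at 24 h, -0.98 and -0.74 at 48 h and -1.26, -1.44 and -1.95 at 96 h. Those in vit C-treated cells were -0.03, -0.59 and 0.11 at 8 h, 0.46 and 0.69 at 24 h, -1.38 and -1.31 at 48 h and -1.35 and -1.66 at 96 h. The arrays of 48 and 96 h lay below all earlier ones, and the UT difference between 96 and 8 h was -1.26 (SE 0.26, q = 0.0031). With the slide as a block, or within slide 1, where the only 96 h array is UT 96 h replicate 1, it was -0.97. The other OAS member, OAS2, differed by -1.13 (SE 0.29, q = 0.0135), with means of -1.22 ± 0.16 at 8 h (n = 2) and -2.35 ± 0.70 at 96 h (n = 3). The OAS2 call was lost with normexp and without UT 8 h replicate 1 or 2 or UT 96 h replicate 1.

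IFI27, a small hydrophobic mitochondrial protein, had UT signals of 4.89 and 4.93 at 8 h, 5.35, 5.08 and 5.35 at 24 h, 5.01 and 5.19 at 48 h and 3.49, 3.75 and 3.79 at 96 h. Treated with vit C, the cells gave 4.90, 4.79 and 4.91 at 8 h, 5.43 and 5.65 at 24 h, 4.48 and 4.62 at 48 h and 4.02 and 3.68 at 96 h. The UT arrays of 8, 24 and 48 h all lay above those of 96 h, and the difference between 96 and 8 h was -1.23 (SE 0.18, q = 0.00019). A second, dimmer probe gave -0.76.

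GBP1 showed the largest rise. UT signals were -2.44 and -2.58 at 8 h, -0.70, -0.81 and -1.36 at 24 h, -1.54 and -1.16 at 48 h and 0.13, -0.52 and 1.42 at 96 h. Vit C signals were -1.70, -1.95 and -2.68 at 8 h, -1.22 and -0.55 at 24 h, 0.15 and -0.21 at 48 h and 1.76 and 1.73 at 96 h. Arrays of 96 h lay above all others in each series, and UT 96 h replicate 3 was the highest UT array and close to the vit C arrays of that time. The UT difference between 96 and 8 h was 2.85 (SE 0.45, q = 0.000381), or 2.32 without UT 96 h replicate 3. A second probe gave 2.73.

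HERC5, the main ligase that attaches ISG15 to proteins, had UT signals of -3.24 and -3.22 at 8 h, -2.01, -2.36 and -2.66 at 24 h, -2.47 and -2.58 at 48 h and -1.5, -1.65 and -1.22 at 96 h. The vit C signals were -3.37, -3.67 and -3.69 at 8 h, -2.77 and -1.97 at 24 h, -2.21 and -2.01 at 48 h and -1.23 and -1.03 at 96 h. The 96 h arrays lay above all others in both series, and the UT difference between 96 and 8 h was 1.77 (SE 0.25, q = 0.00015). ISG15 and its ligase HERC5 thus differed in opposite directions between 8 and 96 h.

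PSMB9, an inducible catalytic subunit of the immunoproteasome, had UT signals of 3.59 and 3.75 at 8 h, 3.84, 3.91 and 4.03 at 24 h, 4.16 and 4.09 at 48 h and 5.31, 5.16 and 5.04 at 96 h. In vit C-treated cells its signals were 3.68, 3.48 and 3.70 at 8 h, 3.71 and 3.22 at 24 h, 4.15 and 4.16 at 48 h and 5.19 and 5.06 at 96 h. The 96 h arrays lay above those of every other time, at a UT difference from 8 h of 1.5 (SE 0.18, q = 3.52e-05). PSMB8, another such subunit, differed by 1.16 (SE 0.27, q = 0.00813), with means of 3.48 ± 0.23 at 8 h (n = 2) and 4.64 ± 0.27 at 96 h (n = 3). The PSMB8 call was lost without UT 8 h replicate 2 and with the slide as a block. TAP1, the peptide transporter encoded beside them, had a q of at most 0.05 but a smaller difference, at 0.70 (q = 0.0152).

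**Figure D3:**
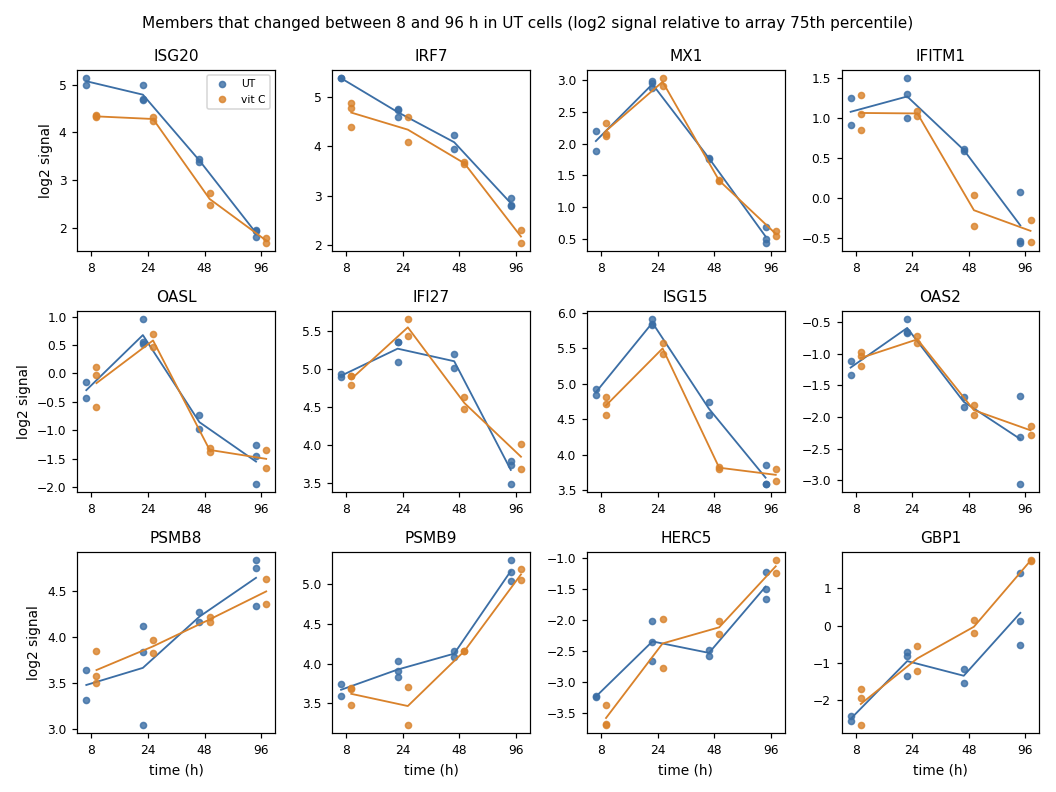
Log2 signal relative to the array's 75th percentile (y axis, a scale of its own in each panel) against time in h (x axis, evenly spaced) for the 12 members that changed between 8 and 96 h in UT cells. Points are single arrays of UT (blue) and vit C-treated cells (orange) and lines join group means; 8 panels end lower than they start and 4 end higher, in both series.

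The remaining members did not pass between 8 and 96 h in UT cells. Among them, IFIT1, IFI44L, IFITM3 and MX2 had a q of at most 0.05 with differences of -0.96, -0.88, -0.75 and -0.54. The values of HERC6 (-0.70), XAF1 (-0.76), LAP3 (-0.75), DDX58 (-0.67) and RSAD2 (-0.65) were lower, with a q above 0.05. BST2 (tetherin), which holds budding virus at the cell surface, stood at 0.63, TRIM22 at 0.56, IFIT5 at 0.55, IRF1 at 0.52, SP110 at 0.33 and IFIH1 at 0.28. Apart from TAP1, given above, all others lay between -0.55 (OAS1) and 0.05 (IFI44). The IRF1 value was lowered by 1 array: UT 96 h replicates 1 and 2 had 1.40 and 1.15 and replicate 3 had -0.93. For TRIM22, replicates 1 and 2 had -1.65 and -1.77 and replicate 3 had -0.97. UT arrays of IFIH1 ran from 2.50 to 3.42 at 96 h and from 2.47 to 2.59 at 8 h. With UT 96 h replicate 1 alone, the IFIH1 difference was -0.03.

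Vit C-treated cells went through the same times on other arrays. Between 8 and 24 h, 34 of the 44 members had higher means, with a median of 0.29 (all genes -0.06), and HERC5 and IFI44L passed, at 1.2 and 1.01 (2.37% of all genes rose). With normexp both calls were lost, HERC5 standing at 0.58, and with the percentile over detected probes that of IFI44L. This count was 0 without vit C 24 h replicate 2 and 1 without vit C 8 h replicate 2 or 3 or vit C 24 h replicate 1. Between 24 and 48 h, 37 members had lower means, with a median of -0.71 (all genes 0.09), and 14 fell past the thresholds (1.75% of all genes). Without vit C 48 h replicate 1, 8 passed. The methods' t-test called 0 of all genes in either step, and 8 and 17 members unadjusted (15.8% and 12.4% of all genes).

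The members that fell from 24 to 48 h in vit C-treated cells were led by RSAD2 (-1.94), OASL (-1.92), IFIT1 (-1.95) and IFI44L (-1.87). They also held ISG15 (-1.68), ISG20 (-1.68), IFI44 (-1.64), MX1 (-1.54), IFIT2 (-1.48), IFITM1 (-1.21), USP18 (-1.13), GBP2 (-1.0), MX2 (-1.06) and SAMD9L (-1.01). The SAMD9L call held in 3 of 13 alternatives and that of GBP2 in 4 of 13, both being lost with normexp, with the slide or replicate number as a block and without any 1 of the 4 arrays. Those of IFI44 and IFIT2 held in 8 of 13, being lost with the slide as a block, without vit C 24 h replicate 2 and without either vit C 48 h array, of which replicate 2 lay alone on its slide. IFITM1 held in 8 of 13, being lost with normexp, without either vit C 24 h array and without vit C 48 h replicate 1. Of the 13 members that fell in UT cells in this step, 8 were among these 14, and 2% of all genes were called in both, in the same direction. The direction was the same in UT and vit C-treated cells for 38 of the 44 members, as for 60.5% of all genes.

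Between 8 and 96 h in vit C-treated cells, 11 members fell (12.1% of all genes) and 4 rose (9.01% of all genes). The median of the 44 was -0.36 (all genes -0.17). With normexp it was -0.31 (all genes -0.54), so relative to all genes the members then lay higher. The values were -2.61 for ISG20, -2.52 for IRF7, -1.75 for USP18, -1.61 for MX1 and -1.56 for OAS1. GBP1 rose by 3.86, HERC5 by 2.45, PSMB9 by 1.5 and TRIM22 by 1.38. In all, 10 members passed both in UT and in vit C-treated cells (8.18% of all genes), and 38 of the 44 had the same direction (62.7% of all genes). The vit C arrays of 96 h lay on a slide of their own, so time and slide cannot be told apart there.

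**Figure D4:**
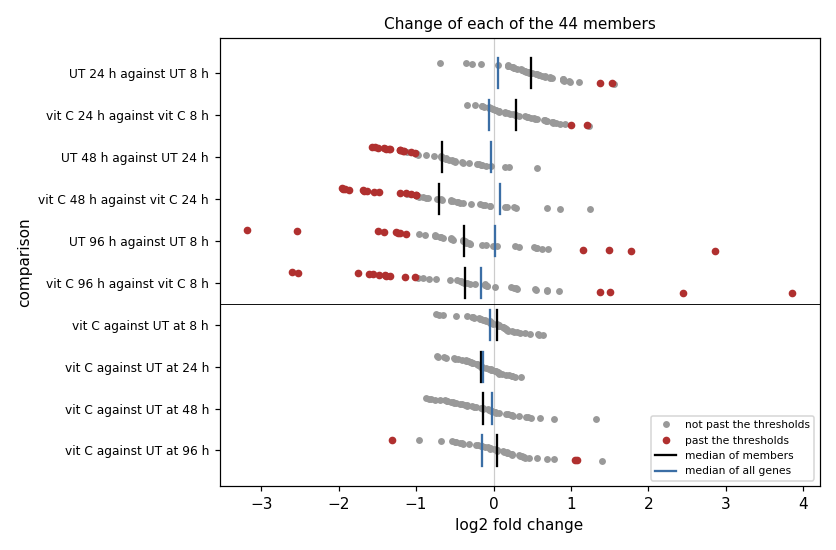
Log2 fold change (x axis) of each of the 44 members in 10 comparisons (rows); red points passed both thresholds, grey points did not, and black and blue bars mark the median of the members and of all genes. Over time the members' median lies away from that of all genes, by as much as 0.80 between 24 and 48 h in vit C-treated cells. The gap is smallest there between 8 and 96 h, at -0.36 for the members and -0.17 for all genes. In the 4 comparisons of vit C-treated with UT cells, as in that one, the medians lie within 0.20 of each other in the setting plotted.

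The question of the study was what vit C does to these cells, and each treated group was set against UT cells of the same time. At 8, 24 and 48 h, 0 members passed the thresholds (limma), where 0.306%, 1.17% and 2.74% of all genes did. At an unadjusted p of at most 0.05, 4, 5 and 8 members passed, where 12.2%, 15.8% and 15.5% of all genes did, and by the methods' t-test 6, 3 and 12 members did (16.5%, 11.2% and 15.7% of all genes). Adjusted, that test called 10, 0 and 0 of all genes and 0 members. The medians of the members were 0.05, -0.16 and -0.13 (all genes -0.05, -0.13 and -0.02). UT arrays of these times lay on slide 1 and vit C arrays on slides 2 and 3, and with the slide as a block 0.0193%, 0.0548% and 0.338% of all genes were called and 0 members, which at such shares says little about them.

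At 48 h, 3 members had a q of at most 0.05 in the lower direction (1.57% of all genes), with differences under 1. They were USP18 at -0.87 (q = 0.0492), ISG15 at -0.83 (q = 0.0236) and ISG20 at -0.81 (q = 0.0257). GBP1 at this time differed by 1.32 (q = 0.189), with UT arrays from -1.54 to -1.16 and vit C arrays from -0.21 to 0.15.

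Averaged over the 4 times, 0 members passed both thresholds (limma; 2.77% of all genes), and 11 had an unadjusted p of at most 0.05 (28.9% of all genes). By q alone, 4 members were lower (7.53% of all genes) and 2 were higher (5.13% of all genes). The lower ones were USP18 at -0.64 (SE 0.10, q = 0.0013), ISG20 at -0.55 (SE 0.08, q = 0.000797), IRF7 at -0.54 (SE 0.10, q = 0.00391) and ISG15 at -0.33 (SE 0.08, q = 0.0191). GBP1 was higher at 0.80 (SE 0.23, q = 0.0356) and TRIM22 at 0.51 (SE 0.14, q = 0.0261). The median of the 44 was -0.06 (all genes -0.11). In an F test of whether the effect differed between times, 0 members had a q of at most 0.05 (limma; 1.05% of all genes) and 7 an unadjusted p of at most 0.05 (17.3% of all genes). Without UT 96 h replicate 1 the F test called USP18, and without replicate 3 it called USP18, EPSTI1 and IRF1.

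At 96 h, 2 members were higher past the thresholds (1.65% of all genes) and 1 was lower (4.75% of all genes). USP18, the protease that removes ISG15 from proteins and restrains the type I receptor, was the lower one. Its signals in UT cells were 2.47 and 2.43 at 8 h, 3.07, 2.88 and 2.72 at 24 h, 2.19 and 2.26 at 48 h and 1.77, 1.93 and 2.45 at 96 h. With vit C they read 2.54, 2.49 and 2.44 at 8 h, 2.55 and 2.42 at 24 h, 1.33 and 1.38 at 48 h and 0.87 and 0.60 at 96 h. The arrays of the 2 treatments overlapped at 8 h and did not at 24, 48 and 96 h, with the vit C arrays lower. The difference at 96 h was -1.31 (SE 0.20, q = 0.00209), a second probe gave -1.06, and without UT 96 h replicate 3, the highest UT array, it was -1.11 (q = 0.00145).

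TRIM22, a ubiquitin ligase with antiviral activity, differed by 1.08 (SE 0.27, q = 0.0336) at 96 h. UT arrays ran from -1.77 to -0.97 and vit C arrays from -0.44 to -0.33, and a second probe gave 0.97. XAF1, a partner of the apoptosis inhibitor XIAP, differed by 1.06 (SE 0.28, q = 0.0393), with UT arrays from -1.49 to -0.34 and vit C arrays from -0.06 to 0.31. Of the other XAF1 probes, 1 gave 1.00 and 1 gave 0.11. Both calls were lost when UT 96 h replicate 2, vit C 96 h replicate 1 or vit C 96 h replicate 2 was left out, and with normexp (0.85 and 1.0), the TRIM22 call also without UT 96 h replicate 1 (0.99) and the XAF1 call also without UT 96 h replicate 3 (0.78).

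Without UT 96 h replicate 3, 6 members passed at 96 h, where 13.7% of all genes did, so the members' share was near that of all genes. They were USP18, TRIM22 (1.33), GBP1 (1.94) and EPSTI1 (1.29), with IFI6 (-1.35) and IRF1 (-1.27) lower. Without UT 96 h replicate 2 or either vit C array, only USP18 passed, as with the replicate number as a block. The methods' t-test called 0 of all genes at 96 h, and 5 members unadjusted (15.2% of all genes).

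The balance of all genes at 96 h moved with the scaling. In the setting used here 511 genes were higher and 1474 lower, against 419 and 414 after quantile normalization and 537 and 526 with the percentile taken over detected probes. The median of all genes was -0.15 here and -0.04 after quantile normalization. Relative to the median of all genes, USP18 stood at -1.17, TRIM22 at 1.23 and XAF1 at 1.21. The 3 members kept their direction in each scaling that was run, and the median of the 44 members was 0.04, or 0.11 after quantile normalization. Of 3 detected fibroblast markers, 2 were higher and 1 lower in this comparison, with a median of 0.71, and only DCN passed, at 2.48 (q = 0.00209). Its part in these differences was not tested. With normexp the median of all genes was -0.40 and that of the members 0.02.

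**Figure D5:**
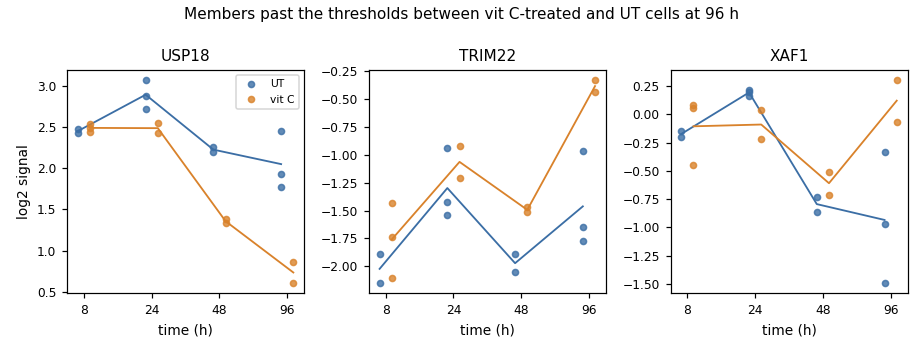
Log2 signal relative to the array's 75th percentile (y axis, a scale of its own in each panel) against time in h (x axis, evenly spaced) for the 3 members past the thresholds between vit C-treated (orange) and UT cells (blue) at 96 h. Points are single arrays and lines join group means; USP18 ends at 0.87 and 0.60 in vit C-treated cells against 1.77 to 2.45 in UT cells.

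Ligands, receptors and other genes of the pathway were read from lists that are separate from the 44 members. Their counts are to be read against the shares of all genes past the thresholds, which between 8 and 96 h in UT cells were 6.95% higher and 5.37% lower. A gene was taken as detected when 1 or more groups had it well above background on each of their arrays. Of 18 interferon ligands on the array, 2 were detected and none of these passed in any of these comparisons. IFNB1, the first interferon made by most infected cells, was well above background on 2 of the 19 arrays. Of 20 detected receptor and signalling genes, 1 rose and 3 fell between 8 and 96 h in UT cells. SOCS1, an interferon-induced inhibitor of the receptor kinases, fell by 2.35 (q = 3.45e-06), with UT means of -1.14, -1.75, -2.70 and -3.48 at the 4 times. IFNGR2 fell by 1.83 and IFNGR1 rose by 1.16, so the 2 chains of the interferon gamma receptor moved in opposite directions. The IFNGR1 call was lost without UT 96 h replicate 3 (0.94). IRF8, a transcription factor of the myeloid lineage, fell by 1.39.

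Other receptor and signalling genes did not pass between 8 and 96 h in UT cells. The differences were 0.29 (q = 0.599) for IFNAR1 and -0.70 (q = 0.245) for IFNAR2. Between vit C-treated and UT cells at 96 h, 2 of the 20 were higher past the thresholds (1.65% of all genes) and none was lower (4.75% of all genes). IRF8 was higher by 1.27 (q = 0.0413), or 1.61 without UT 96 h replicate 3. IL28RA, a chain of the interferon lambda receptor, was well above background on both vit C arrays of 96 h and on no other array. It was at least 2.17-fold higher (q = 0.00301), a bound taken against the lowest signal well above background on each UT array or the probe's own signal where that was higher. SOCS1, IFNAR1, IFNAR2, IFNGR1 and IFNGR2 differed by -0.05, -0.37, 0.15, 0.14 and -0.36 with a q above 0.05. At 8 h, SOCS3, a related inhibitor, was lower in vit C-treated cells, at -1.49 (q = 0.0271).

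Of 42 further detected interferon-stimulated genes, 36 had lower means at 48 than at 24 h in UT cells and 5 fell past the thresholds (1.03% of all genes), with none rising (3.01% of all genes). The falls were those of CXCL11, CMPK2 (-1.69), LAMP3 (-1.39), TNFSF10 (-1.11) and SAMHD1 (-1.10). CXCL11, a chemokine, was not well above background on either UT array of 48 h and was at least 2.41-fold lower there (q = 0.0156). Between 8 and 96 h, 4 of the 42 rose (APOL3 at 1.84, CASP1 at 1.40, SP100 at 1.08 and PLSCR1 at 1.07) and none fell, a share of rises near the 6.95% of all genes. When UT 96 h replicate 3 was left out, SP100 (0.86) and PLSCR1 (0.82) no longer passed, APOL1 rose (1.54) and CXCL10 (-1.12) and CMPK2 (-1.09) fell. Between vit C-treated and UT cells at 96 h, GBP5 was higher at 1.29 (q = 0.00518) and CXCL11 lower. The latter passed background on 2 of 3 UT and neither of the vit C arrays, and was at least 2.35-fold lower (q = 0.0143). When UT 96 h replicate 3 was left out, the GBP5 difference was 1.32 and SAMHD1 passed as well (1.24).

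Of 13 detected genes of MHC class I presentation, which load peptides made by the proteasome, 4 rose between 8 and 96 h in UT cells and none fell. Among them were HLA-F at 1.37 (q = 0.00119), B2M, the light chain, at 1.19 (q = 0.000572) and HLA-G at 1.07 (q = 0.00549). The HLA genes share sequence, and probes of 1 may bind transcripts of another. The 3 named here also passed when UT 96 h replicate 3 was left out, with 2 further genes of the list. Between vit C-treated and UT cells none of the 13 passed at 96 h. Of 16 detected genes of nucleic acid sensing, 2 rose between 8 and 96 h (TLR8 at 2.60 and TLR7 at 1.45) and 3 fell (AIM2 at -1.30, TLR9 at -1.14 and TICAM1 at -1.03). At 48 h, VISA, the older symbol of the adaptor MAVS, was higher in vit C-treated cells by 1.93 (q = 0.0388), and at 96 h TLR8 was higher by 1.15 when UT 96 h replicate 3 was left out.

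Members were also split by whether a RefSeq window held an ISRE core. In UT cells the median between 8 and 24 h was 0.56 for the 25 members with a core and 0.42 for the 11 without, between 24 and 48 h -0.67 and -0.61, and between 8 and 96 h -0.36 and -0.36. In vit C-treated cells the medians with and without a core were 0.48 and 0.03 for 24 against 8 h, -0.85 and -0.52 for 48 against 24 h and -0.24 and -0.12 for 96 against 8 h. Of the members that fell by 96 h in UT cells, ISG15, ISG20, MX1, IFITM1 and IFI27 held a core and OASL, OAS2 and IRF7 had no window. Of those that rose, GBP1, HERC5 and PSMB8 held a core and PSMB9 had a window without one. No test was made between these groups.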

How the data were processed

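Signals of 19 one-colour arrays were analysed, with groups taken from the sample titles. The deposited intensity values came from Agilent Feature Extraction 10.5.1.1, per the file headers, with detrending on, local background correction off and arrays not normalized to each other. The deposited log2 values of the series matrix, shifted by the authors to the 75th percentile in GeneSpring, served as an alternative.

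Here, spots of the same probe were averaged (50238 probes) on the log2 scale and the array's 75th percentile (290 to 904 in signal units) was subtracted. Depth does not apply to arrays, whose number limits the precision. With limma 3.58.1 in R 4.3.3 (lmFit and eBayes, two-sided), means of 8 groups were estimated from all arrays; the script was tested on simulated data. Each of 31033 gene names took its brightest probe after the fit. Of the members, 21 have several probes, which disagreed in sign for 0 to 8 members per comparison. The methods state 3 biological replicates per condition, of which those with sufficient RNA integrity were arrayed. Promoters come from RefSeq. Figures were drawn with matplotlib 3.10.9. Alternatives covered background, scaling, dim probes, probe choice, test, slide, replicate number and each array left out.

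The members and lists were chosen with earlier results of these data known. Comparisons of 48 with 24 h, those over time within vit C-treated cells and the counts by q or unadjusted p alone were added after values had been seen. Signals on every array are given for the 14 members with the largest differences among those past the thresholds in the 9 other comparisons. Listed genes beyond 5 per list were named after their values had been seen. Some listed genes are not reported here.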

Additional observations from a re-analysis of the deposited data

How the results depend on the processing

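No call past the thresholds changed direction. The small median of the members in vit C against UT changed sign without UT 8 h replicate 2 at 8 h (0.05 to -0.01) and without UT 96 h replicate 2 at 96 h (0.04 to -0.0076). With normexp the members of vit C 96 h against 8 h lay above rather than below the median of all genes. So did those of vit C against UT at 24 h (-0.11, all genes -0.23). At 8 h the members' median turned from above to below that of all genes (0.04, all genes 0.07). Of 192 alternatives other than leaving out an array, 179 kept the median or count of members near its value. That number includes the series matrix values, which are the same signals apart from a shift per array and could hardly differ. They also count among the alternatives given for single calls. A count that stayed at 0 was scored as kept. The methods' t-test, fitted to each pair of groups alone, called 0 members in vit C against UT at 96 h, UT 24 h against 8 h, UT 48 h against 8 h, UT 48 h against 24 h, vit C 24 h against 8 h and vit C 48 h against 24 h, and 2 in UT 96 h against 8 h. Of all genes it called 0 in these comparisons, except 7 in UT 48 h against 8 h and 211 in UT 96 h against 8 h. Same-numbered arrays did not deviate together (8 pairs, correlations -0.11 to 0.09). With 2 or 3 arrays per group the deviations within a group depend on each other, so this cannot decide whether the numbers pair arrays. With the replicate block 1 member was called in vit C against UT at 96 h and 1 in UT 24 h against 8 h. In vit C 24 h against 8 h, normexp called 1 member, IFI6, and neither of the 2 reported, and the percentile over detected probes called 1, HERC5. Quantile normalization called 1 (USP18) in the F test of the vit C effect across times. Counting any probe, with opposing probes removed, called 5 in UT 48 h against 8 h, adding GBP2 and EPSTI1. Leaving out each array gave 1 to 6 calls in vit C against UT at 96 h, 0 to 3 in the F test, 0 to 3 in UT 24 h against 8 h, 6 to 12 in UT 48 h against 24 h, 0 to 3 in vit C 24 h against 8 h and 8 to 12 in vit C 48 h against 24 h. The calls of all genes moved as well. In vit C against UT at 96 h, 405 genes were higher and 526 lower without UT 96 h replicate 2. Without UT 96 h replicate 3 they were 845 and 3421. The median of the members ranged from -0.36 to -0.15 in UT 48 h against 8 h and from -0.53 to -0.33 in UT 96 h against 8 h, both lowest without UT 8 h replicate 2. Except for the t-test, whose construction differs, the cause was not tested. With the slide as a block, vit C against UT at 96 h, the average, the F test and vit C 96 h against 8 h could not be fitted. ISG20 and IRF7 passed in UT 96 h against 8 h in all 15 alternatives run.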
